A study of Mus musculus with 9 samples.

Results

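Transcripts of 9 Hedgehog pathway genes were measured in ventral hippocampus of mice that had or had not been restrained and exercised. The genes were listed by name for their place in the pathway, with earlier results of these data known. They were the receptors Ptch1 and Smo, the co-receptors Boc and Cdon, the ligand-binding protein Hhip and the inhibitor Sufu. The transcription factors Gli1, Gli2 and Gli3 completed the list. All 9 were found among the 40213 gene symbols of the count tables, and all 9 passed the filter on low counts, as did 16106 genes in total. The 9 libraries came from wild-type male C57BL/6J mice housed from 8 weeks of age, 3 mice in each of 3 groups. Sedentary controls (SED) had no treatment. Stress-susceptible mice (SUS) were restrained in ventilated tubes for 2 hours on each of 14 days. The exercised group (SUS_LE) went through the same restraint and then 2 weeks of low-intensity treadmill running, while the other groups stayed sedentary. Restrained mice classed as resilient and unrestrained mice that exercised are not among the groups, and how mice were scored as susceptible is not given in the sources used here.

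Hedgehog ligands are secreted proteins that bind Ptch1. Free Ptch1 holds Smo inactive, and ligand binding lets Smo enter the primary cilium, where Gli proteins are released from Sufu and change from repressors to activators of transcription. Gli1, Ptch1 and Hhip are themselves targets of the pathway, so their transcripts are used as readouts of its activity, and Ptch1 and Hhip feed back on it by binding ligand. In the adult mouse forebrain the pathway is known for its role in neural stem cells of the dentate gyrus and subventricular zone and for signalling from neurons to astrocytes.

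The promoters of Ptch1 and Hhip, the feedback targets whose levels serve below as readouts, are shown as RefSeq gives them in build GRCm38.p6, each from 250 bases before to 50 bases after the annotated gene start. The counts were made on another build, GRCm39, so these coordinates are for the sequences alone. Ptch1 lies at chr13:63565686-63565985 on the minus strand and Hhip at chr8:80057959-80058258 on the minus strand. Capitals mark CCACCC or its reverse complement GGGTGG, the centre of the Gli consensus site GACCACCCA.
Ptch1: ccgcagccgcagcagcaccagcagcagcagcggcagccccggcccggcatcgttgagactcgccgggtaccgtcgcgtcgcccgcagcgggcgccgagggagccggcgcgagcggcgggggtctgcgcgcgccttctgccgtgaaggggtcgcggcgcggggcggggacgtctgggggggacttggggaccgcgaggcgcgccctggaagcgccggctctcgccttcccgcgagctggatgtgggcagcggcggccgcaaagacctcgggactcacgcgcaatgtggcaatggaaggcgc
Hhip: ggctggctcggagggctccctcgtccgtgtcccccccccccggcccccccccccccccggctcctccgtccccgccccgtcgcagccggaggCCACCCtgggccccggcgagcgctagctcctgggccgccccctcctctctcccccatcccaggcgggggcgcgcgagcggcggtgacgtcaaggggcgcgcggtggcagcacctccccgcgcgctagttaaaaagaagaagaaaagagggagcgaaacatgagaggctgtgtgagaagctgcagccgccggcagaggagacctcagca
Searched on both strands, Hhip held the 6-base centre once, 158 bases before the gene start, and Ptch1 did not hold it in this window. Among the 7 of the 9 genes with a RefSeq promoter sequence at hand, 4 held the centre (Smo and Gli3 once each, Gli2 in 2 places, Hhip once), against 31.5% of all 32851 mouse promoters of the same length. The full 9-base site stood in 0 of the 7 and in 0.253% of all promoters. These are matches of letters, and sites outside the window were not searched.

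Depth was even across libraries, with 14172344 to 15582304 counts each. CPM, the count of a gene relative to the total of its library as scaled by edgeR's TMM factors, is used as its level. Before that scaling, a single count was worth about 0.0642 to 0.0706 CPM. Hippocampal neuron markers were present in every library (8 of 8 tested, 1140 to 1430 CPM summed). Choroid plexus epithelium, a tissue that borders the hippocampus, varied most: its 12 markers summed to 4420 to 6420 CPM in SED, 145 to 8630 in SUS and 224 to 2290 in SUS_LE, and SUS 1, SUS_LE 1 and SUS_LE 3 were the low ones. In such bulk tissue fewer cells of a type and less RNA per cell cannot be told apart.

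Per length of transcript, Smo and Ptch1 were the most abundant of the 9 genes and Gli1 the least. Levels in CPM per kb of merged exons (GENCODE M21 annotation), as mean ± SD over the 9 libraries, were 3.29 ± 0.472 for Smo, 3.26 ± 0.299 for Ptch1, 2.93 ± 0.311 for Cdon, 2.13 ± 0.348 for Boc and 1.67 ± 0.206 for Sufu. Gli3 followed at 1.33 ± 0.148, Gli2 at 0.808 ± 0.0857, Hhip at 0.767 ± 0.106 and Gli1 at 0.439 ± 0.114. Gli3, known mainly as a repressor, was thus the most abundant of the Gli factors, and all 9 of its values (lowest 1.17) stood above all 9 of Gli2 (highest 0.959). That was the only pair of neighbours in the order whose ranges over the libraries did not overlap. With the longest transcript as the length, Sufu (2.85 ± 0.35) stood above Boc (2.13 ± 0.348) and the order was otherwise the same.

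**Figure D1:**
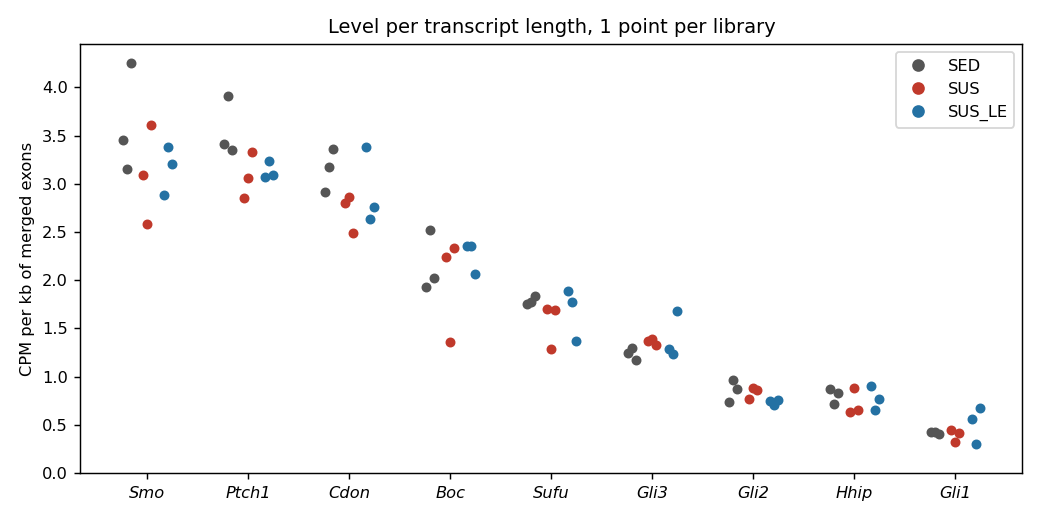
Level of each Hedgehog gene in CPM per kb of merged exons (vertical axis), 1 point per library, coloured by group, genes in order of their mean. Smo, Ptch1 and Cdon lie between 2.49 and 4.24, and Gli1 between 0.299 and 0.668.

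Of the ligands, Shh was present at a low level in all libraries (0.58 ± 0.162 CPM per kb, n = 9), close to that of Gli1. Dhh, at 0.0555 ± 0.0214, and Ihh, at 0.035 ± 0.0376 with 0 counts in 3 libraries, did not pass the filter; a count of 0 allows up to 3 counts in a library. Gas1, a co-receptor beside Boc and Cdon, stood at 1.74 ± 0.32.

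The receptor Ptch1, with the highest counts of the 9 genes, had CPM values of 48.4, 55.4 and 47.5 in the SED mice, 40.5, 43.4 and 47.2 in the SUS mice, and 43.6, 45.9 and 43.8 in the SUS_LE mice, each in the order of replicates 1, 2 and 3, as for all genes below. The SED values were the 3 highest, and SUS 3 lay just under the lowest of them. Smo, the signal transducer that Ptch1 restrains, stood at 19.4, 17.7 and 23.9 CPM in SED, 17.4, 14.5 and 20.3 in SUS, and 16.2, 19.0 and 18.0 in SUS_LE. All 3 groups overlapped for Smo, with SED 3 highest and SUS 2 lowest.

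Cdon, a cell surface co-receptor for Hedgehog ligand, stood at 22.5, 24.5 and 25.9 CPM in SED, 21.6, 22.1 and 19.2 in SUS, and 26.1, 20.3 and 21.3 in SUS_LE. SUS lay below SED, while SUS_LE overlapped both, with SUS_LE 1 the highest library. Boc, a related co-receptor, stood at 8.57, 11.2 and 8.99 CPM in SED, 9.97, 6.04 and 10.4 in SUS, and 10.5, 10.5 and 9.19 in SUS_LE. SUS 2 was the lowest and the other 8 libraries lay between 8.57 and 11.2. Hhip, which binds and sequesters ligand, stood at 7.86, 6.52 and 7.5 CPM in SED, 5.77, 7.98 and 5.96 in SUS, and 8.21, 5.91 and 6.94 in SUS_LE, and its groups overlapped throughout.

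Sufu, which holds Gli proteins in the cytoplasm, stood at 13.5, 13.6 and 14.1 CPM in SED, 13.1, 9.92 and 13.0 in SUS, and 14.5, 13.6 and 10.5 in SUS_LE. SUS 2 and SUS_LE 3 were low, and the other 7 libraries lay within 13.0 to 14.5. Gli3 stood at 11.9, 12.4 and 11.2 CPM in SED, 13.1, 13.3 and 12.7 in SUS, and 12.3, 11.8 and 16.1 in SUS_LE. SUS lay above SED, and SUS_LE 3 was the highest library. Gli2, the main activator in mouse development, stood at 5.06, 6.59 and 5.95 CPM in SED, 5.29, 6.04 and 5.89 in SUS, and 5.13, 4.81 and 5.17 in SUS_LE. The 3 SUS_LE values lay below all SUS values, and SED overlapped both. Gli1, an activator and the most used readout of the pathway, stood at 2.11, 2.1 and 2.03 CPM in SED, 2.2, 1.6 and 2.06 in SUS, and 2.81, 1.49 and 3.34 in SUS_LE. SUS_LE held both the highest and the lowest Gli1 values, and the other 2 groups lay between them.

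**Figure D2:**
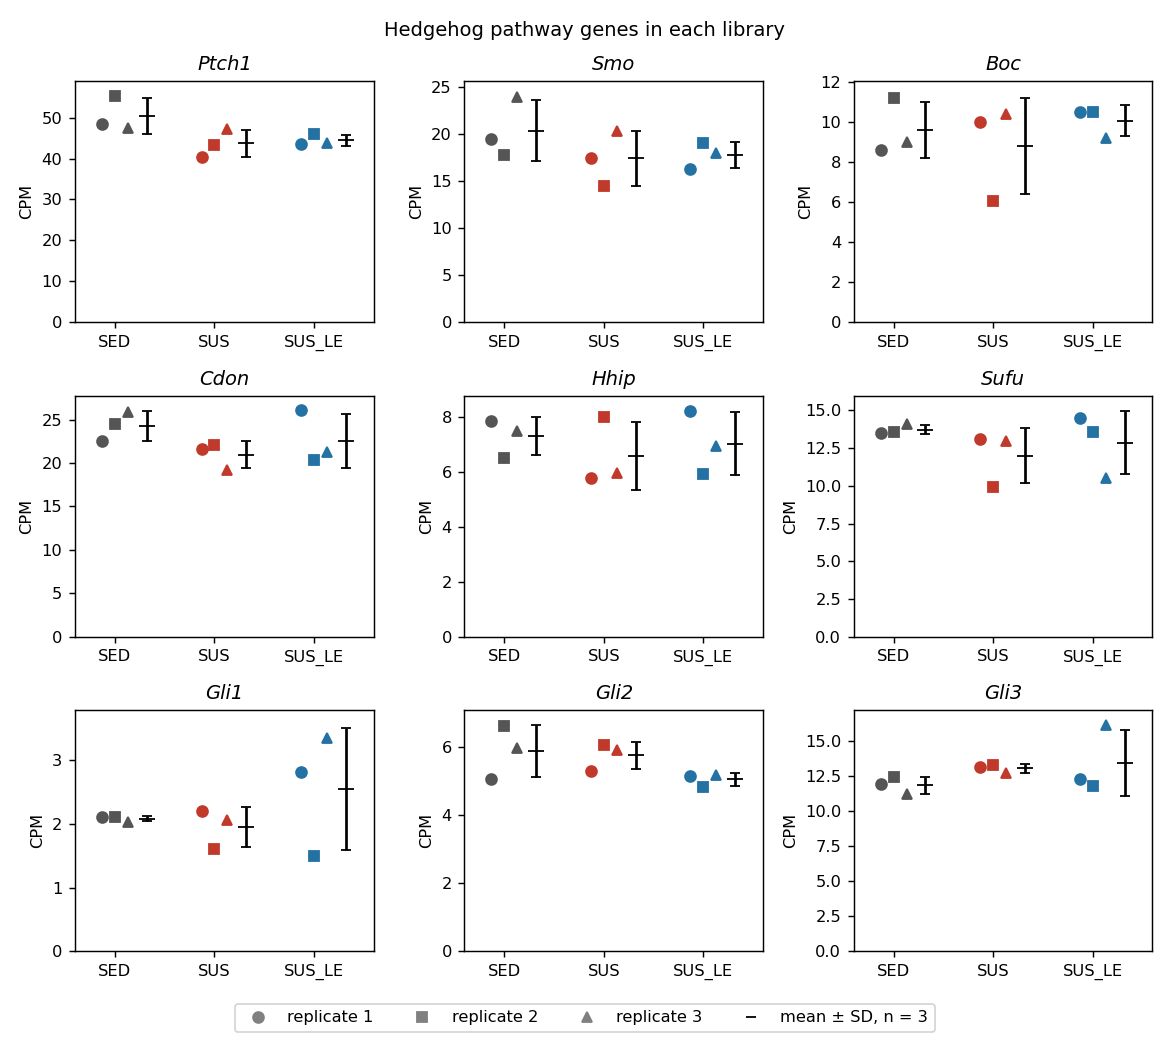
CPM (vertical axis, from 0) of each Hedgehog gene in the 9 libraries by group, 1 symbol per replicate number, with the mean and SD of the 3 mice of a group beside them. Ptch1 is highest in SED (47.5 to 55.4), and Gli1 is most spread in SUS_LE (1.49 to 3.34).

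Spread between mice of a group was larger than counting error for 8 of the 9 genes. Gli1 had 32 counts a library on average, so that counting alone gives a coefficient of variation of about 18%, against 26.3% observed between mice of a group. Ptch1, with 675 counts, varied by 7% within groups against 3.86% from counting. Gli2 varied by 9.25% within groups, no more than the 11.1% that counting gives, while Boc (17.6% against 8.59%) and Smo (14.1% against 6.13%) varied by more. SUS 2 was the lowest library for 3 of the 9 genes (Smo, Sufu and Boc). It was also lowest in the scores (mean log2 CPM, centred on the 9 libraries) of meningeal fibroblast markers (−0.869, against −0.174 to 0.448 in the other libraries). The same held for pericyte and smooth muscle markers (−0.688, against −0.14 to 0.294). Endothelial (−0.19), neural stem and precursor (−0.161) and astrocyte (−0.0901) scores were lowest in SUS 2 too. The part of these cells in the 3 low values was not tested.

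The first comparison, SUS against SED, asks whether susceptible mice differ from unstressed ones after restraint. In SUS 8 of the 9 genes had lower mean values than in SED, and Gli3 was higher, but none passed the test. Ptch1 stood at 43.7 ± 3.34 CPM in SUS against 50.4 ± 4.31 in SED (SD, n = 3 each). Its log2 fold change, the difference on a scale where 1 is a doubling, was −0.21 (SE 0.07, 95% interval −0.36 to −0.05), with an edgeR p of 0.0127 and an adjusted p of 0.246 (Benjamini-Hochberg over all tested genes). Cdon stood at 20.9 ± 1.54 against 24.3 ± 1.72 CPM . Its log2 fold change was −0.21 (SE 0.10), with an edgeR p of 0.0464 and an adjusted p of 0.37. Smo gave −0.22 (SE 0.13), Sufu −0.19 (SE 0.13), Hhip −0.15 (SE 0.17), Boc −0.12 (SE 0.18), Gli1 −0.09 (SE 0.29), Gli2 −0.03 (SE 0.16) and Gli3 0.14 (SE 0.12), with edgeR adjusted p from 0.474 to 0.955.

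By edgeR 0 of the 9 genes passed an adjusted p of 0.05 between SUS and SED, as did 0% of all tested genes. At an unadjusted p of 0.05 there were 2 of 9, Ptch1 and Cdon, against 13.1% of all tested genes; both were lower, as were 6.26% of all tested genes at that p. Limma voom called 0, as it did of all genes. DESeq2 called 1.1% of all genes, and its filtering left all 9 without an adjusted p. The SUS and SED values did not overlap for 4 of the 9 (Ptch1, Cdon and Sufu lower, Gli3 higher), against 18.3% of all genes, and 50.1% of all genes had a lower mean in SUS. The median log2 fold change was −0.15 over the 9 genes and −0.000386 over all genes; the gap for Sufu was narrow (13.1 in SUS 1 against 13.5 in SED 1). The intervals reached from ±0.16 for Ptch1 to ±0.60 for Gli1, before adjustment for the number of genes. Oligodendrocyte markers were lower by group mean in SUS in 8 of 8, 5 of them at an unadjusted edgeR p under 0.05 and 0 after adjustment. Their sums were 2920 to 3130 CPM in SED and 2470 to 2820 in SUS. By library, their score was −0.134 in SUS 1, 0.029 in SUS 2 and −0.182 in SUS 3, so SUS 2, lowest in Smo, Sufu and Boc, was not low in it. Choroid plexus markers were lower in 12 of 12, with sums as given above and 0 of 12 at 0 counts throughout. Mostly lower as well were ependymal (7 of 7), meningeal fibroblast (7 of 8), pericyte and smooth muscle (6 of 7) and endothelial (5 of 6) markers. Interneuron (6 of 7) and excitatory neuron (4 of 5) markers were mostly higher, and the remaining lists were split more evenly. With the choroid plexus score in the model the log2 fold change was −0.15 for Ptch1 and −0.27 for Cdon. With GC and length trends removed it was −0.13 for Ptch1. The part of oligodendrocytes and of the other cell types was not tested.

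**Figure D3:**
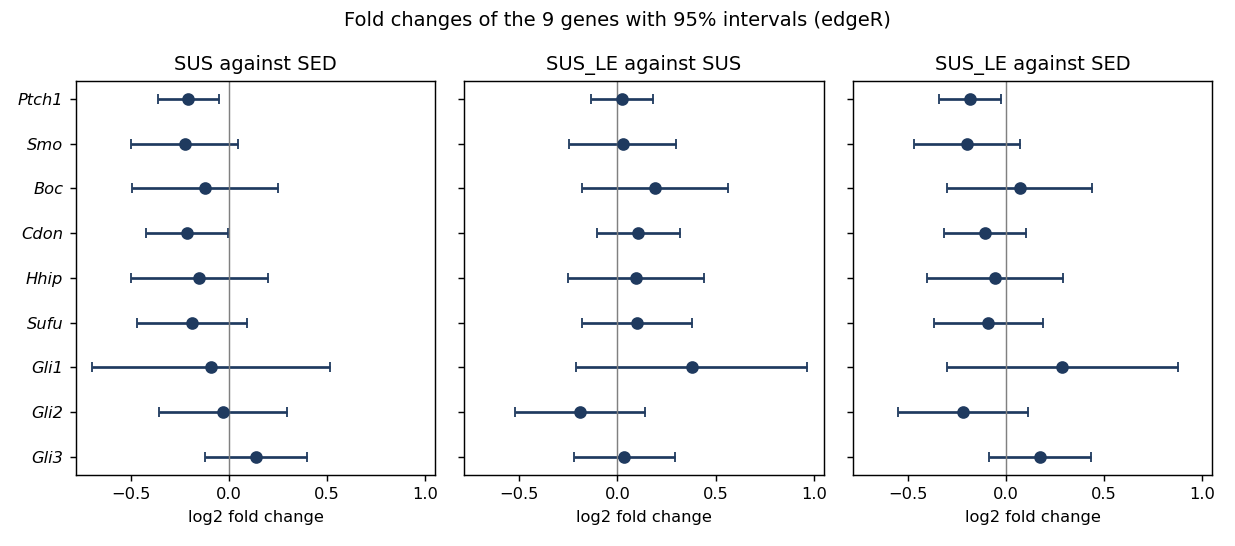
Log2 fold change of each Hedgehog gene (horizontal axis) with its 95% interval from the edgeR fit, in the 3 comparisons. Only the intervals of Ptch1 in SUS against SED (−0.36 to −0.05) and in SUS_LE against SED (−0.34 to −0.02), and of Cdon in SUS against SED, leave out 0 before adjustment for the number of genes.

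The second comparison, SUS_LE against SUS, asks what exercise after restraint does in susceptible mice. Mean values were higher in SUS_LE for 8 of the 9 genes and lower for Gli2, and none passed the test. Ptch1, the gene measured most closely, stood at 44.5 ± 1.28 CPM in SUS_LE against 43.7 ± 3.34 in SUS, a log2 fold change of 0.03 (SE 0.08, 95% interval −0.13 to 0.18, edgeR adjusted p = 0.921). Gli1 had the largest value at 2.55 ± 0.948 against 1.95 ± 0.315 CPM (0.38, SE 0.28, edgeR adjusted p = 0.577). The Gli1 difference came from SUS_LE 1 and SUS_LE 3, both poor in choroid plexus markers, while SUS_LE 2 lay below every SUS library. SUS 1, poor in these markers too, stood at 2.2 CPM of Gli1. The 3 libraries lowest in the choroid plexus gene Ttr were SUS_LE 3 (59.6 CPM), SUS_LE 1 (83.2) and SUS 1 (27.4). Without them the Gli1 difference was −0.28 (SE 0.43), with a single SUS_LE library left. Its direction held in 21 of the 22 alternatives described below, all but that one. Gli2 stood at 5.04 ± 0.201 against 5.74 ± 0.395 CPM (−0.19, SE 0.16, edgeR adjusted p = 0.626).

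The other genes gave log2 fold changes of 0.19 for Boc (SE 0.18), 0.11 for Cdon (SE 0.10), 0.10 for Sufu (SE 0.13), 0.09 for Hhip (SE 0.17), 0.04 for Gli3 (SE 0.12) and 0.03 for Smo (SE 0.13). By edgeR 0 of 9 passed, against 0% of all tested genes, and 0 of 9 had an unadjusted p under 0.05, against 13.7%. Limma voom called 0 of 9, and DESeq2, which called 1.15% of all genes, called 0 and left 8 of the 9 without an adjusted p. Groups did not overlap for 1 of 9 (Gli2, lower), against 17% of all genes, and 49.7% of all genes were below 0. This comparison and the first share the SUS libraries, so opposite signs in them are not separate observations.

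The third comparison sets SUS_LE against SED, restrained and exercised mice against untreated ones. Mean values were lower in SUS_LE for 6 of the 9 genes and higher for Gli1, Gli3 and Boc, and none passed the test. Ptch1 stood at 44.5 ± 1.28 CPM against 50.4 ± 4.31 in SED . Its log2 fold change was −0.18 (SE 0.07, 95% interval −0.34 to −0.02), with an edgeR p of 0.0256 and an adjusted p of 0.685. Its SED values are the same as in the first comparison. With the choroid plexus score in the model it was −0.07 (SE 0.09). That score was 1.26 to 1.84 in the SED libraries and −2.57 to 0.174 in the SUS_LE libraries, without overlap. Choroid plexus content and group therefore cannot be told apart between these 2 groups. Gli2 gave −0.22 (SE 0.16), Smo −0.20 (SE 0.13), Cdon −0.11 (SE 0.10), Sufu −0.09 (SE 0.13), Hhip −0.06 (SE 0.17), Boc 0.07 (SE 0.17), Gli3 0.17 (SE 0.12) and Gli1 0.29 (SE 0.28). Without the 3 libraries lowest in Ttr, the values were −0.01 for Gli3 and −0.47 for Gli1, with 1 SUS_LE library in the fit. By edgeR 0 of 9 passed (0% of all tested genes), and 1 of 9, Ptch1, had an unadjusted p under 0.05, against 6.64% of all genes (3.86% lower at that p). Limma voom called 0 of 9, and so did DESeq2, which called 0.0993% of all genes. A lower mean was found for 47.1% of all genes. Groups did not overlap for Ptch1 alone, 1 of 9, against 16.2% of all genes. A test for any difference among the 3 groups gave an edgeR p of 0.024 for Ptch1 (adjusted p = 0.294), and 0.13 to 0.663 for the other 8 (13.5% of all tested genes were under 0.05 and 0% passed after adjustment, or 1.22% by DESeq2).

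Beyond the 9 genes, 55 further genes of the pathway were listed by role, of which 52 passed the filter and 0 were called by edgeR in any of the 3 comparisons. At an unadjusted p of 0.05 there were 6 of 52 in SUS against SED, 6 in SUS_LE against SUS and 5 in SUS_LE against SED, where the shares of all tested genes were 13.1%, 13.7% and 6.64%. Unlike the 9 genes, they did not lean one way between SUS and SED by count: 26 were higher and 26 lower, with a median log2 fold change of 0.01. Kinases and ubiquitin ligases that act on Gli (14 tested) had a median of −0.01, ciliary regulators of Smo and Gli (15 tested) 0.02, and other target genes (10 tested) 0.03. Ligands and their release factors (6 tested of 9) also had a median of 0.03, and other receptors and co-receptors (7 tested) −0.03. The difference between these lists and the 9 genes was not tested.

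Spop, a substrate adaptor of the ubiquitin ligase that degrades Gli2 and Gli3, stood at 121, 119 and 123 CPM in SED, at 137, 132 and 129 in SUS and at 134, 130 and 134 in SUS_LE, with SED below all other libraries. The log2 fold change was 0.13 (SE 0.05) in SUS against SED (edgeR adjusted p = 0.253) and 0.13 (SE 0.05) in SUS_LE against SED (edgeR adjusted p = 0.649). Grk2, a kinase that phosphorylates Smo, stood at 161 ± 9.65 CPM in SUS, 147 ± 7.4 in SED and 146 ± 8.74 in SUS_LE (0.14, SE 0.06, edgeR adjusted p = 0.326, and −0.15, SE 0.06, 0.291). With GC and length trends removed these Grk2 differences were 0.06 and −0.06, and without SUS 1 they were 0.09 and −0.10. Once the choroid plexus score was in the model they were 0.08 (SE 0.06) and −0.20 (SE 0.06), the latter larger than in the main fit.

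Scube3, a secreted protein of the family that helps release Hedgehog ligand, had the widest differences of the 52 in both comparisons of SUS_LE. It stood at 5.9, 4.98 and 4.33 CPM in SED, 2.06, 3.96 and 7.2 in SUS, and 0.958, 2.73 and 1.23 in SUS_LE. The 3 lowest libraries were SUS_LE 1, SUS_LE 3 and SUS 1, the same as the lowest in Ttr. Its log2 fold change was −1.61 (SE 0.52, edgeR adjusted p = 0.649) in SUS_LE against SED, where DESeq2 called it (adjusted p = 0.0459), and −1.41 (SE 0.52, edgeR adjusted p = 0.302) in SUS_LE against SUS. With the choroid plexus score in the model these were −0.56 (SE 0.29) and −0.73 (SE 0.26). In SUS_LE against SED the score and the group cannot be told apart, as for Ptch1 above. With the 3 libraries lowest in Ttr left out they were −0.89 and −1.03, with a single SUS_LE library left. Without SUS 3 alone, SUS_LE against SUS gave −0.87 (SE 0.40). Stk36, a kinase linked to Gli signalling and to motile cilia, stood at 3.19 ± 0.485 CPM in SUS_LE, below 4.62 ± 0.448 in SED without overlap (−0.53, SE 0.20, edgeR adjusted p = 0.657), and was also lowest in SUS_LE 1 and SUS_LE 3. With that score in the model it was −0.24 (SE 0.25), with the same limit.

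**Figure D4:**
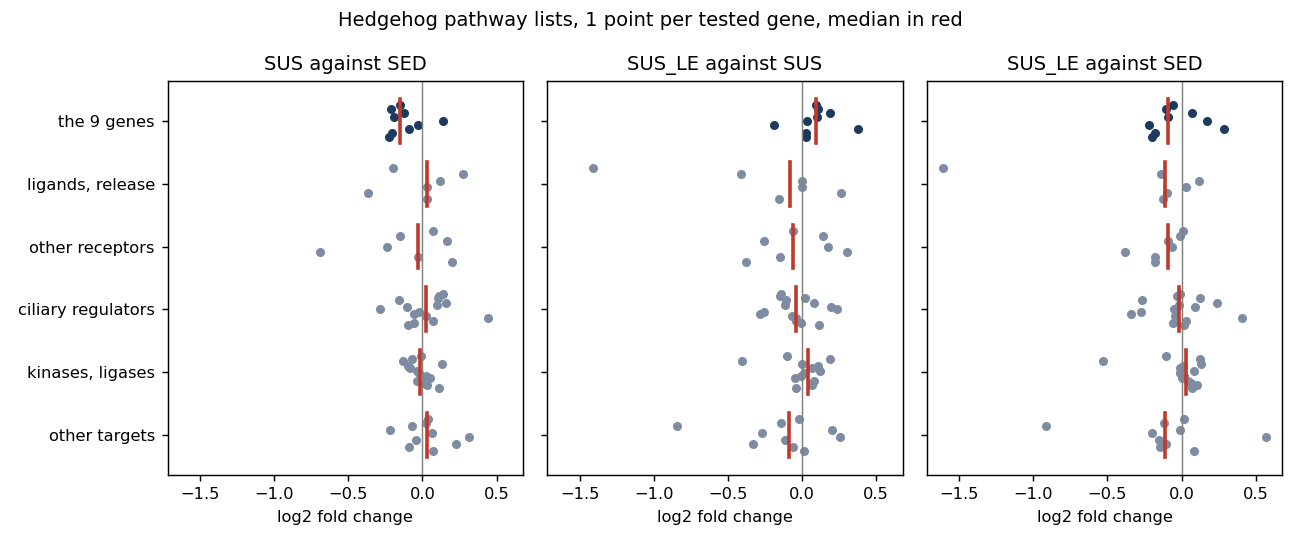
Log2 fold change (horizontal axis) of each tested gene of the 9 Hedgehog genes and of 5 further pathway lists, in the 3 comparisons, with the median of each list as a red bar. The medians of the 9 genes are −0.15, 0.09 and −0.09, and the point furthest left in the comparisons of SUS_LE with SUS (−1.41) and with SED (−1.61) is Scube3.

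Among ligand and cilium genes that were to be named whatever their values, none passed the test. Shh stood at 1.26, 2.31 and 1.49 CPM in SED, 1.51, 1.39 and 2.26 in SUS and 1.03, 1.49 and 2.11 in SUS_LE, with complete overlap (log2 fold changes 0.03, SE 0.34, in SUS against SED and −0.16, SE 0.34, in SUS_LE against SUS). In SUS against SED the co-receptor Gas1 gave −0.03 (SE 0.21, edgeR adjusted p = 0.969). Kif7, the ciliary tip kinesin that organises Gli traffic, gave −0.06 (SE 0.26, edgeR adjusted p = 0.949) there, −0.28 (SE 0.27) in SUS_LE against SUS and −0.34 (SE 0.27) in SUS_LE against SED. Gpr161, a ciliary receptor that keeps the pathway off, gave −0.09 (SE 0.07) in SUS against SED and 0.11 (SE 0.07) in SUS_LE against SUS. Arl13b, a GTPase of the ciliary membrane, stood at 8.49, 8.38 and 8.65 CPM in SUS_LE and at 6.19, 7.29 and 8.22 in SUS, without overlap (0.23, SE 0.14, edgeR adjusted p = 0.496). SED, at 8.43, 10.2 and 7.77 CPM, overlapped both, and SUS against SED gave −0.28 (SE 0.14, edgeR adjusted p = 0.418).

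The genes most like each of the 9 in their pattern over the 9 libraries were named by Pearson's r of log2 CPM among 15100 genes. For Gli1 these were Ctss (r = 0.965) and Slc26a7 (0.961), for Gli2 Flii (0.957) and Trp53inp2 (0.921), and for Gli3 Nell1 (0.948) and Klf4 (0.936). For Ptch1 they were Idh2 (0.932) and Cerkl (0.92), for Smo Tor1aip1 (0.927) and Gm32604 (0.916), and for Sufu Ackr3 (0.965) and Ppp1r13l (0.932). For Boc they were Ccdc3 (0.937) and Gm32687 (0.925), for Cdon Gm38485 (0.946) and Dnajc14 (0.921), and for Hhip Igsf10 (0.92) and Lactb (0.918). None of the 18 is another of the 9 genes, or of the 55 further pathway genes. Each r is among the highest of very many over 9 points that share library makeup, and is given as a description only.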

How the data were processed

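Total RNA of ventral hippocampus from 9 mice was sequenced from CORALL V2 libraries, per the labels' protocols. The deposited files hold whole-number counts per gene symbol, 1 file per library; per the submitters' processing notes the authors worked on GRCm39 with Salmon, STAR and fastp, no versions given. Annotation, strand use, molecular identifiers and any rounding are not given in the sources used here. Without strand, reads of overlapping genes cannot be told apart: in GENCODE M21 exons of Gli1 overlap those of Arhgap9 (4.67 counts a library) and those of Gli3 overlap Gm6556 (19.6). Headers number the exercised libraries otherwise than the labels, whose numbers are used. Between libraries of a group, chi-square per degree of freedom was 2.7 to 14.6, so no pair agreed within sampling noise.

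Genes were kept by edgeR's expression filter (16106 genes, 99.9% of counts), scaled by TMM, and fitted to all 9 libraries with a robust quasi-likelihood model with group as the only term (R 4.3.3, edgeR 4.0.16, limma 3.58.1, DESeq2 1.42.0). P values were adjusted over all tested genes, with 0.05 as threshold. They set each group difference against the spread between separate mice. Standard errors follow from the F statistic, and intervals cover 95%. The fit was tested on simulated data with log2 changes of 1 or 2, up or down, between SUS and SED. It recovered 80% of the changes of 1 and 92.9% of those of 2, with 12 false calls among 15904 genes. Simulated counts were drawn for each gene separately, without the differences in tissue makeup that real libraries share across genes. These rates therefore need not hold for the real libraries. Changes as small as those of the 9 genes were not simulated. Log2 CPM used a prior count of 2. The 9 genes, the pathway and marker lists, the tests and the alternatives were chosen with earlier results of these data known. Named genes were the 9, 8 fixed ligand and cilium genes, the 3 other pathway genes with the smallest p in each comparison, and the 2 most similar genes by r. Some genes that this rule names are not reported here. Symbols matched a GENCODE M21 length for all 9. Alternatives were DESeq2, limma voom, other scalings and filters, no robust step, only the groups compared, a replicate block, a choroid plexus covariate, removal of GC and length trends, and leaving out each library or the 3 lowest in Ttr.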

Additional observations from a re-analysis of the deposited data

How the results depend on the processing

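None of the 9 Hedgehog genes was called in any of the 3 comparisons under the 22 alternatives (21 planned, 1 added after seeing the data, which removed GC and length trends). Over all tested genes, calls per comparison ran from 0 to 430 of 26992 (no filter, SUS_LE against SUS). The test among the 3 groups, which called none of the 9 either, was not run with only 2 groups. DESeq2 left all 9 without an adjusted p there and in SUS against SED, and 8 in SUS_LE against SUS. The 22 alternatives include 9 that leave out a library each and the replicate block (0 called). Deviations of same-numbered libraries correlated at −0.123 to 0.18, and those of differently numbered ones at −0.28 to 0.167. Not every library correlated best with its own number, but 3 libraries a group cannot settle whether the numbers pair them. Of the recomputed fold changes of the 9 genes, 564 kept their direction and 30 did not. Ptch1 kept it throughout in SUS against SED (−0.27 to −0.13) and SUS_LE against SED (−0.22 to −0.07), and so did Cdon, Smo, Sufu, Hhip and Gli3 in the former. The cause of the changes below was not tested.

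Directions turned outside the left-out libraries as follows. In SUS_LE against SUS, Gli3 was −0.00951 with limma voom, −0.0124 once choroid plexus was a covariate and −0.14 if the 3 libraries lowest in Ttr were dropped, a setting in which Cdon was −0.0171, Gli1 −0.28 and Hhip −0.23. With library totals only Smo was −0.00336 and Ptch1 −0.00428, and with GC and length trends removed Ptch1 was −0.0158. In SUS_LE against SED Gli1 was −0.12 given that covariate, whose values did not overlap between these groups. Lacking those 3 libraries, Gli1 was −0.47 and Gli3 −0.0106. In SUS against SED Gli2 was 0.0217 without them.

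When libraries were left out in turn, values for SUS against SED ran from −0.262 to 0.0848 for Boc, −0.126 to 0.0604 for Gli2 and −0.185 to 0.0304 for Gli1, and without a change of sign from −0.353 to −0.0931 for Smo, −0.257 to −0.072 for Sufu and −0.317 to −0.0659 for Hhip. For SUS_LE against SUS they ran from −0.0253 to 0.227 for Sufu, −0.0219 to 0.326 for Boc, −0.0912 to 0.149 for Smo, −0.12 to 0.12 for Gli3, −0.00865 to 0.18 for Cdon, −0.0324 to 0.254 for Hhip and −0.0265 to 0.0799 for Ptch1, and from 0.135 to 0.653 for Gli1. For SUS_LE against SED they ran from −0.183 to 0.038 for Sufu, −0.00486 to 0.20 for Boc and −0.183 to 0.0552 for Hhip, and from 0.0441 to 0.562 for Gli1, 0.0189 to 0.26 for Gli3, −0.287 to −0.0656 for Smo, −0.221 to −0.0348 for Cdon, −0.222 to −0.109 for Ptch1 and −0.315 to −0.128 for Gli2.

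Of the 55 further pathway genes, 0 were called in SUS against SED under any alternative. Brackets below give how many of all tested genes were called in the same setting. In SUS_LE against SUS, where the main fit called 0, 1 was with DESeq2 (185 of 16106) and 1 with the choroid plexus score (428 of 16106). Without a filter 3 were, Scube3 and Sfrp1 among them (430 of 26992). With a library left out 0 to 1 were, the 1 without SUS 2 (184 of 16366). In SUS_LE against SED 1 was with DESeq2, Scube3 (16 of 16106). There, 2 were without a filter (218 of 26992) and 2 with only the groups compared (239 of 15767), Scube3 and Sfrp1 in both. With a library left out 0 to 1 were, Sfrp1 without SUS 3 (50 of 16322). Low counts limit Gli1 and Shh.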

Other observations

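Sfrp1, a secreted Wnt inhibitor and a Hedgehog target in some tissues, was not among the genes to be named and is given because some alternatives called it, so it was chosen after its values were seen. It stood at 9.13, 8.76 and 7.23 CPM in SED, 4.74, 6.11 and 13.1 in SUS, and 4.24, 3.64 and 5.45 in SUS_LE. The SUS_LE values lay below all SED values, and SUS spanned both (log2 fold change in SUS_LE against SED −0.91, SE 0.38, edgeR adjusted p = 0.742). With the choroid plexus score in the model it was −0.37 (SE 0.40), though that score did not overlap between these 2 groups. Without the 3 libraries lowest in Ttr, with SUS_LE 2 as the 1 library of its group, it was −1.2 (SE 0.48). Foxf1 and Osr1 were likewise chosen after their values were seen. Foxf1, another listed target, was highest in SUS_LE 3 (1.84 CPM, against 0.52 to 1.23 in the other libraries), which was also the highest library for Gli1 and Gli3. These are low counts, 27 in SUS_LE 3 and 8 to 18 elsewhere. No other target of that list was highest in SUS_LE 3, and Mycn (3.95 CPM) and Rab34 (5.24) were lowest there. Ptch1 (43.8) and Hhip (6.94) were not highest there either. Osr1, of the same list, was lowest in SUS 2 (2.57 CPM, against 4.14 to 6.37 in the others). That library was also lowest in Smo, Sufu and Boc and in the meningeal, pericyte, endothelial, precursor and astrocyte scores.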
